A study of Mus musculus with 7 samples.

Results

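The genes described here are 38 genes of the cell division cycle, read as unique molecular identifiers (UMIs, each standing for 1 captured RNA molecule) per 1000000 UMIs (CPM) in every annotated cell type of mouse brain tumours. They were taken as a named list of S phase, G2/M, G1 and transcription factor genes by a rule that uses no measured value, though with earlier results of these data known, and all 38 were found among the 55491 gene rows of the matrix. The list holds 12 genes of S phase and replication, 17 genes of G2/M, 7 cyclins and kinases of G1 and 2 transcription factors. Their 466752 UMIs made up 0.225% of all UMIs in 28644 cells.

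The cells came from 7 mice engrafted with CT-2A glioma cells (a mouse glioma line) in the brain at 8 to 12 weeks of age. The 4 KO mice were Sall1CreERT2 x Siglecefl/fl Cre+ animals (labelled Siglece KO), and the 3 WT mice were Cre- animals with the same floxed alleles. Sall1 is a microglial gene, so the tamoxifen-dependent Cre is aimed at microglia. All mice of both groups received 2.5 mg tamoxifen per injection, daily from day 7 to day 21 after engraftment and every other day from then on. The tumour-bearing hemisphere was dissociated, frozen and thawed, live cells positive for CD45, CD11b or both were sorted, and each mouse gave 1 droplet library, so that the mouse is the replicate. Libraries held 1410 to 5856 cells at a median of 4479 to 9554 UMIs per cell, and the 38 genes took between 0.174% and 0.275% of the UMIs. KO replicate 1 had the fewest cells and the deepest ones. Of 28178 distinct barcodes, 460 occurred in more than 1 library, in 926 cells (3.23%). Siglece, the targeted gene, gave 2, 1, 0 and 0 UMIs in the 30, 21, 13 and 49 microglia of the 4 KO mice and 20, 19 and 7 UMIs in the 113, 92 and 96 microglia of the 3 WT mice. Per 1000000 UMIs that was 10.7, 19.6, 0 and 0 against 36.1, 45.9 and 18.6, so that KO replicate 2, on 1 UMI, lay above WT replicate 3 and the groups overlapped.

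A dividing cell first commits in G1, where D-type cyclins activate Cdk4 and Cdk6 and release E2F factors from Rb-family proteins. E2F targets and cyclin E then start DNA replication, in which the Mcm2-7 ring unwinds DNA and nucleotide synthesis enzymes supply the building blocks. Cyclin A and cyclin B with Cdk1 drive mitosis, and the anaphase-promoting complex ends it by marking cyclins and securin for destruction. Transcription of the late genes is known to run through CCAAT boxes bound by NF-Y and CHR elements bound by the DREAM and B-Myb complexes, with Foxm1 recruited to them.

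Promoter sequence was looked up for the 38 genes to show what the members share besides their names. RefSeq promoters on build GRCm38.p6 were matched for 28 of them, those of Mcm4, Gins2, Ccna2, Aurkb, Tpx2, Stmn1, Ccnd1, Ccnd2, Ccne2 and Foxm1 not being among them. The 250 bases before the start were searched on both strands for the CHR element spelled TTTGAA or, as a variant form, TTCGAA, for the CCAAT box by its name, and for the E2F element in 4 spellings, the first being TTCCCGC, the next of them TTGGCGC, another one TTCGCGC and the last one TTGCCGC. The E2F spelling TTGGCGC can overlap a CCAAT box on the other strand. CCAAT was present in 12 of 13 G2/M genes (92.3%) and 9 of 10 S genes (90%), against 37.5% of the 27025 genes with a promoter. At least 2 CCAAT boxes were present in 10 of 13 G2/M genes (76.9%) and 6 of 10 S genes (60%) against 11.5% of all genes. CHR letters were found in 6 of 13 G2/M genes (46.2%), 2 of 10 S genes (20%) and 19.6% of all genes. The E2F letters were found in 6 of 10 S genes (60%), 3 of 13 G2/M genes (23.1%) and 9.01% of all genes. Both CHR and CCAAT letters were found in 6 of the 13 G2/M genes, 2 of the 10 S genes and 7.00% of all genes. Of the 4 G1 genes with a promoter, 1 had CCAAT and none had CHR or E2F letters. Birc5 was the G2/M gene without CCAAT. E2f1, the 1 transcription factor with a promoter, had no CHR, CCAAT or E2F letters. Further mitosis genes outside the list had CCAAT in 32 of 47 (68.1%), 2 or more of them in 18 of 47 (38.3%), and CHR in 21 of 47 (44.7%). Further replication genes had E2F letters in 14 of 30 (46.7%), CCAAT in 16 of 30 (53.3%) and 2 or more CCAAT boxes in 9 of 30 (30%).

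The sequences below show examples: 5 G2/M promoters with CCAAT and CHR letters, of which Cdk1 and Mki67 also hold E2F letters, 2 S phase promoters with E2F and CCAAT letters, and a G1 kinase promoter with none of the 3 motifs. Each is the last 150 bases before the start, 5′ to 3′ on the strand of the gene, from RefSeq on GRCm38.p6, with CHR, CCAAT and E2F letters on either strand in capitals. Top2a lies at chr11:99024190-99024339 (minus strand), Cdk1 at chr10:69352913-69353062 (minus strand), Ube2c at chr2:164769779-164769928 (plus strand), Cdc20 at chr4:118437344-118437493 (minus strand), Mki67 at chr7:135716380-135716529 (minus strand), Mcm6 at chr1:128359706-128359855 (minus strand), Rrm1 at chr7:102441545-102441694 (plus strand) and Cdk6 at chr5:3343743-3343892 (plus strand).
Top2a: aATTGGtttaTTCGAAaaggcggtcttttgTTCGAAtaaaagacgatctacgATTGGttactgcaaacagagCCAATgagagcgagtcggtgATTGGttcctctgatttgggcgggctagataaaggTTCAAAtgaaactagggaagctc
Cdk1: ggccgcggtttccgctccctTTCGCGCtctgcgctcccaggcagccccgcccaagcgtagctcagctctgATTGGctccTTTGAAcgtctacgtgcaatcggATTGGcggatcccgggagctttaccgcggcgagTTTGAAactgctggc
Ube2c: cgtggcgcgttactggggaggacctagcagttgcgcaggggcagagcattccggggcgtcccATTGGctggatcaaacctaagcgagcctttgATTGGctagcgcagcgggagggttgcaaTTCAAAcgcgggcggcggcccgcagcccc
Cdc20: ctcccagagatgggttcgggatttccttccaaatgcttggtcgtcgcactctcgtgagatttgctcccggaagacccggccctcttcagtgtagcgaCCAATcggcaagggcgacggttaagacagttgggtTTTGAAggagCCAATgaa
Mki67: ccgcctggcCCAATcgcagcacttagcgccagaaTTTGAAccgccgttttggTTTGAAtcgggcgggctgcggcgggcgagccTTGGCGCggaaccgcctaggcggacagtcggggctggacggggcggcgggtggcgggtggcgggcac
Mcm6: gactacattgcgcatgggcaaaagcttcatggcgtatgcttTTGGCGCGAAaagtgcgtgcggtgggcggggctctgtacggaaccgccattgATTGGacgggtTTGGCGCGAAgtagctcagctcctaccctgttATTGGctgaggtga
Rrm1: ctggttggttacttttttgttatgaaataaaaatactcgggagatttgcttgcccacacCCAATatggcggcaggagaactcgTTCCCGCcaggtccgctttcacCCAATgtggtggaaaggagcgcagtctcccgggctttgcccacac
Cdk6: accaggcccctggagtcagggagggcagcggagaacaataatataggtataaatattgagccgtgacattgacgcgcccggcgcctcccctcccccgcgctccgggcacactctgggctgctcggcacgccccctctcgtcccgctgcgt
In the full 250 bases, Top2a had 6 CCAAT boxes and 4 CHR matches, Ube2c 6 CCAAT boxes and 1 CHR match, and Mcm6 4 overlapping E2F matches and 2 CCAAT boxes. These are matches of letters, and no binding was measured.

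The labels of 23 annotations by the authors were taken as given and checked against marker genes. T cell markers summed to 3636 CPM in proliferating CD8 T cells, 3836 in proliferating CD4 T cells with Tregs (regulatory T cells) and 31.0 in proliferating macrophages. Macrophage and monocyte markers summed to 6466 in proliferating macrophages and to 147 and 212 in the 2 T cell groups. Markers of other cells were present in some: NK cell markers reached 1153 in proliferating CD8 T cells (315 to 2732 over mice), microglia markers 1040 in proliferating macrophages against 6779 in microglia, and conventional dendritic cell markers 322 in proliferating CD4 T cells with Tregs (80.3 to 503). Tumour markers summed to 6821 in the tumour or stromal cells, which passed the immune sort, and to 2746 or less elsewhere. Annotations and phase calls may rest in part on the 38 genes themselves, the genes used for them not being given. Levels by annotation and phase are therefore descriptions without a test, and the part of other cells in them was not tested.

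G2/M transcripts were enriched in 3 small proliferating annotations and in tumour cells, B cells and cDC1 (conventional dendritic cells type 1). Proliferating CD8 T cells held 2.61% of all UMIs and 15.9% of the G2/M gene UMIs, proliferating macrophages 2.24% and 10.0%, and proliferating CD4 T cells with Tregs 2.14% and 9.15%. The cDC1 held 18.1% of the G2/M gene UMIs with 13.1% of all UMIs, tumour or stromal cells 12.2% with 4.16%, and B cells 7.70% with 4.57%. These 6 annotations are the first columns of the heatmap of all 38 genes. Summed over the 17 G2/M genes, the level was 5800 CPM in proliferating CD8 T cells, 4255 in proliferating macrophages, 4064 in proliferating CD4 T cells with Tregs, 2795 in tumour cells, 1600 in B cells and 1318 in cDC1. It was 363 in NK cells, 143 in monocytes P1-P2 and 65.9 in plasmacytoid dendritic cells (pDCs). The S gene UMIs were spread more widely: cDC1 held 16.6%, precursor-exhausted CD8 T cells 13.5% (with 14.7% of all UMIs), proliferating CD8 T cells 9.04%, tumour cells 8.28%, macrophages P5 8.24% (with 12.6%), the CD4 group 7.16%, B cells 7.01% and proliferating macrophages 4.14%. In level summed over the 12 S genes the order changed: 2187 in proliferating CD8 T cells, 2115 in the CD4 group, 1257 in tumour cells, 1167 in proliferating macrophages, 969 in B cells, 801 in cDC1 and 634 in NK cells.

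**Figure D1:**
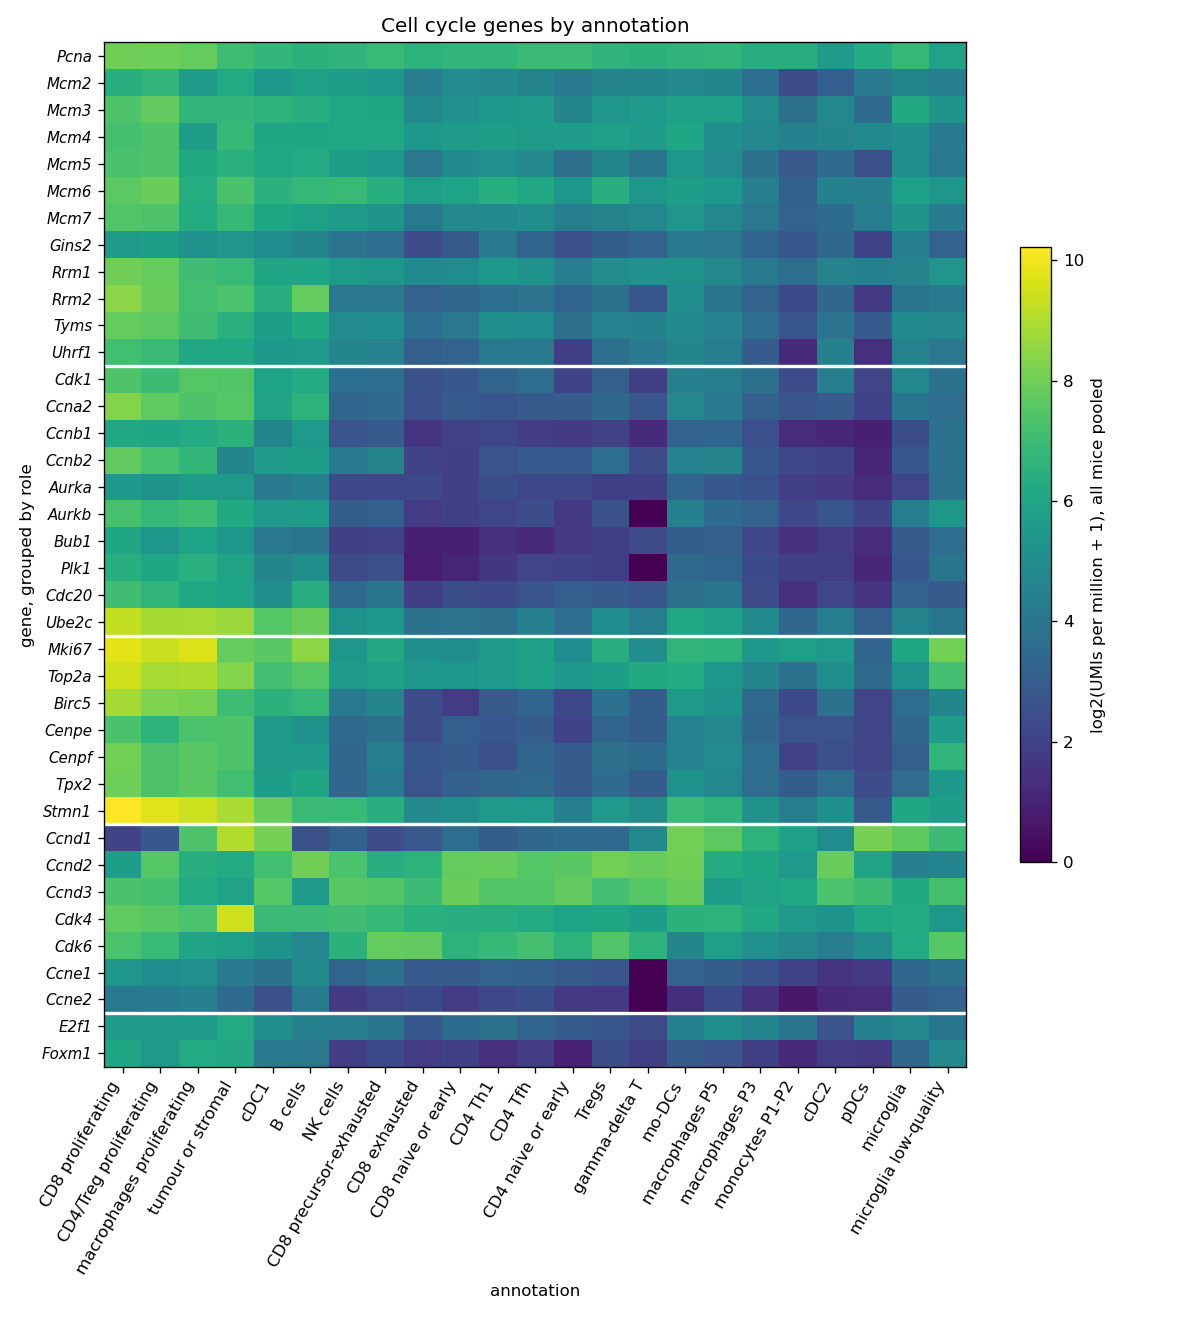
Each row is 1 of the 38 genes, grouped by role with white lines between groups, and each column 1 of the 23 annotations; colour gives log2(CPM + 1) with all mice pooled. Most S and G2/M rows are brightest in the 4 leftmost columns, with Ccnb2 at 24.3 in tumour cells an exception. The rows of Ccnd2, Ccnd3 and Cdk6 are brightest in other columns. Ccnd1 is brightest in tumour cells (513) and dimmest in proliferating CD8 T cells (3.32).

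Among the S phase genes, the helicase subunits were highest in T cells. Mcm6, a subunit of the Mcm2-7 helicase, was at 177 to 300 CPM over 6 mice in proliferating CD4 T cells with Tregs (median 237). It was at 167 to 209 in proliferating CD8 T cells (median 200), 143 to 187 in tumour cells (median 157, 5 mice) and 47.7 to 99.1 in proliferating macrophages (median 74.6, 6 mice). The macrophage mice lay below every T cell and tumour value, and the 2 T cell ranges overlapped. NK cells stood at 121 and B cells at 111 for Mcm6 with all mice pooled, above the proliferating macrophages at 79.0, while monocytes P1-P2 were at 7.9. Mcm4 showed the same gap, at 168 in the CD4 group, 145 in the CD8 group, 113 in tumour cells and 50.4 in proliferating macrophages. Mcm2, Mcm3, Mcm5 and Mcm7 lay at 48.7, 103, 71.9 and 77.4 in proliferating macrophages, and at 101, 216, 167 and 162 in the CD4 group. Gins2, which joins the helicase at the fork, spanned only 35.6 to 52.2 across the 3 proliferating annotations and tumour cells.

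Pcna, the sliding clamp of DNA polymerase, did not follow the helicase. It was at 229 to 284 in proliferating CD8 T cells (median 251), 220 to 294 in the CD4 group (median 233) and 200 to 236 in proliferating macrophages (median 225), ranges that overlap, and at 114 to 138 in tumour cells. It was also at 84.4 in monocytes P1-P2 and 76.9 in pDCs, where Mcm6 was at 7.9 and 20.6. The nucleotide enzymes were led by CD8 T cells. Rrm2, the regulated subunit of ribonucleotide reductase, was at 289 to 519 in proliferating CD8 T cells (median 353), at 170 to 280 in the CD4 group, at 113 to 165 in proliferating macrophages and at 113 to 207 in tumour cells. Rrm2 in B cells ran from 56.2 to 291 (median 216), and the lowest annotation was pDCs at 2.3. Rrm1, the large subunit, stood at 258, 223, 134 and 116 in proliferating CD8 T cells, the CD4 group, proliferating macrophages and tumour cells. Tyms, thymidylate synthase, stood at 221, 196, 135 and 88.1 in that order, and Uhrf1, which guides maintenance of DNA methylation, at 139, 116, 69.7 and 67.6. Across the 12 S genes the ratio of proliferating CD8 T cells to proliferating macrophages had a median of 1.96 (1.13 to 2.88), with 12 of 12 above 1 and 11 higher in all 5 mice that had both. For the CD4 group against macrophages the median ratio was 1.89, and 12 of 12 were higher in all 5 mice.

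For the kinases and cyclins of G2/M the ratios lay nearer 1. Their median ratio was 1.11 for proliferating CD8 T cells over proliferating macrophages (6 of 10 above 1) and 0.83 for the CD4 group over macrophages (3 of 10 above 1). In each pair 3 of the 10 genes were higher in the T cells in all 5 mice and 1 was lower in all 5. Against the CD4 group, proliferating CD8 T cells were higher pooled in 10 of 10 (median ratio 1.36), 4 of them in all 6 mice, and in 6 of the 12 S genes (median ratio 0.98), with 2 higher and 2 lower in all 6. Cdk1, the mitotic kinase, was at 142 to 200 in proliferating CD8 T cells (median 174), 127 to 253 in proliferating macrophages (median 185) and 148 to 186 in tumour cells (median 178), ranges that overlap. Ccna2 (cyclin A2, active from S phase to mitosis) favoured CD8 T cells at 240 to 377, with tumour cells at 166 to 233 and proliferating macrophages at 141 to 194. Ube2c, the ubiquitin-conjugating enzyme of the anaphase-promoting complex, spread widely over mice, at 485 to 690 in proliferating CD8 T cells, 325 to 888 in proliferating macrophages, 243 to 700 in the CD4 group and 333 to 499 in tumour cells. Cdc20, its activator, was at 133, 101.9, 68.7 and 59.6 in proliferating CD8 T cells, the CD4 group, proliferating macrophages and tumour cells. Of the kinases, Plk1 and Aurka were highest in proliferating macrophages (88.4 and 49.6, against 86.5 and 43.1 in proliferating CD8 T cells), while Aurkb and the checkpoint kinase Bub1 were highest in proliferating CD8 T cells (151 and 63.2, against 130 and 59.2).

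The 2 B-type cyclins went apart in tumour cells. Ccnb1 was highest there, at 87.0 to 112 over 5 mice (median 94.1), above proliferating CD8 T cells at 52.1 to 85.6 (median 61.4) with no overlap. Pooled, Ccnb1 in proliferating macrophages was 0.83 times its level in tumour cells, a pair not given by mouse here. Ccnb2 was at 2.87 to 36.5 in tumour cells (median 25.1) and at 157 to 277 in proliferating CD8 T cells (median 204), 103 to 218 in the CD4 group and 88.5 to 198 in proliferating macrophages. Pooled, Ccnb2 was 8.85 times as high in proliferating CD8 T cells as in tumour cells, the widest ratio of the 10 genes in that pair, whose median was 1.51. Within cells called G2M, Ccnb2 remained at 41.3 in tumour cells, against 284 in proliferating CD8 T cells, 257 in the CD4 group, 183 in cDC1, 125 in B cells and 124 in proliferating macrophages. Ccnb1 in the same cells was 163 in tumour cells, 127 in B cells and between 88.7 and 113 in the other 4. Of the UMIs of Ccnb1, 5.62% were in values that were not whole numbers, and how such values arose was not given in the sources used here.

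**Figure D2:**
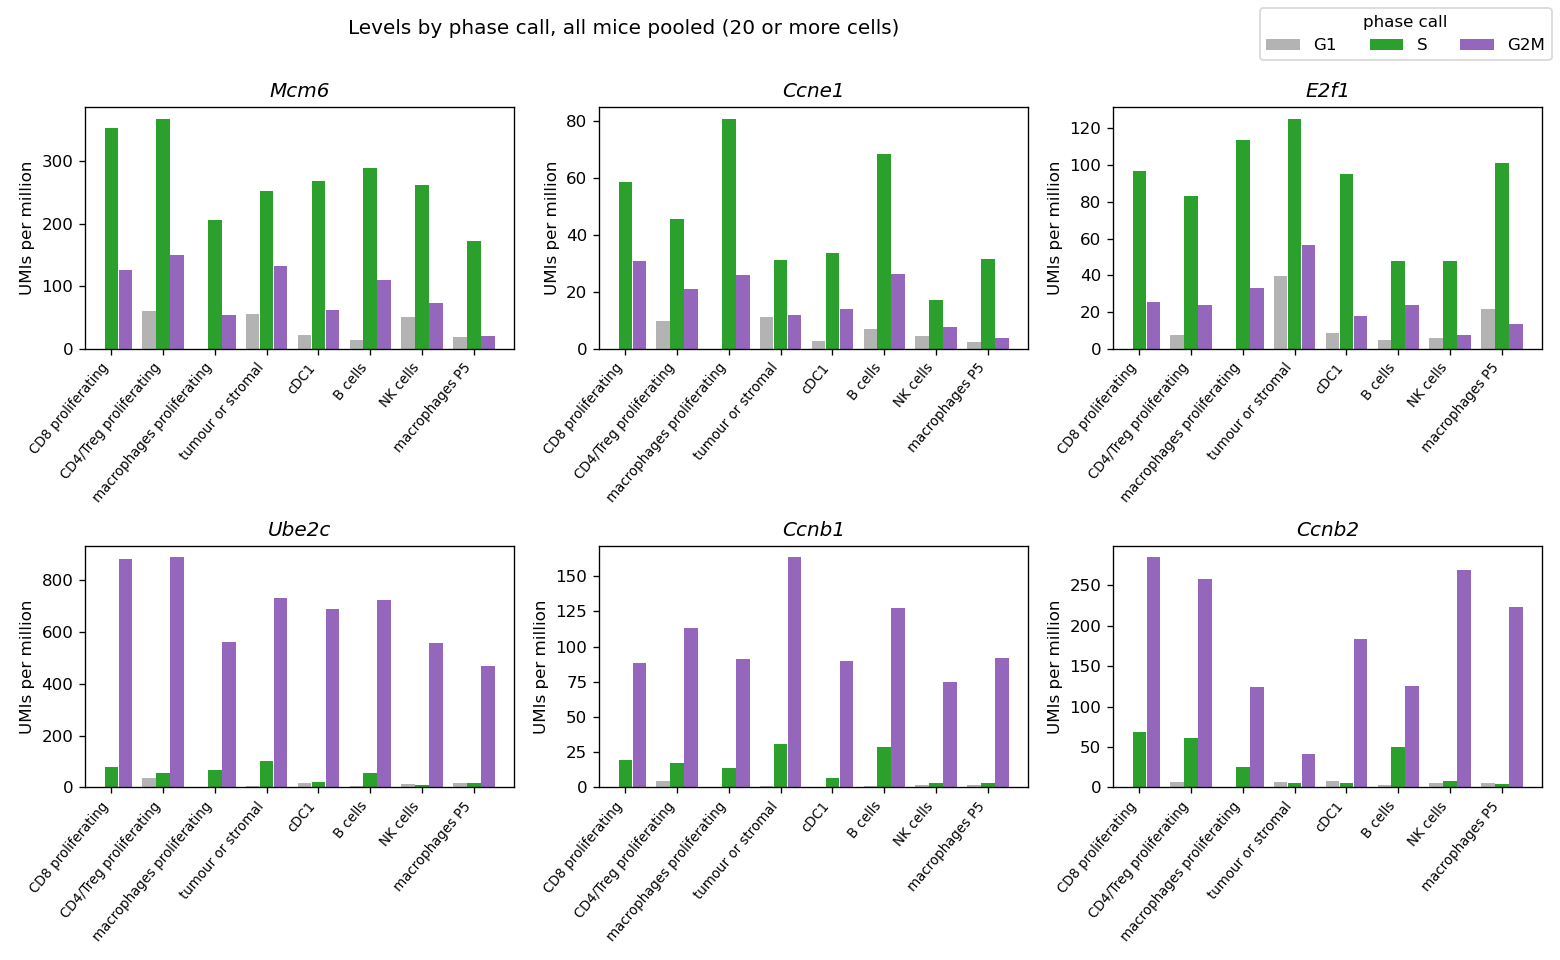
Bars give CPM in cells called G1, S or G2M, all mice pooled, for 8 annotations and 6 genes; groups under 20 cells have no bar, and there are no error bars because cells of all mice are pooled. Ccnb1 is highest in G2M-called tumour cells, where Ccnb2 is the lowest of the 8 annotations.

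The spindle, chromosome and marker genes were highest in proliferating CD8 T cells for 6 of 7. Mki67 (Ki-67, the proliferation marker that coats mitotic chromosomes) was at 793 to 1102 in proliferating CD8 T cells (median 876), 673 to 894 in proliferating macrophages (median 772), 544 to 758 in the CD4 group (median 702) and 168 to 260 in tumour cells (median 241). Tumour cells thus fell below all 3 proliferating immune annotations in every mouse, although their summed G2/M level was more than that of B cells and cDC1. Mki67 in cDC1 was at 119 to 264 (median 175) and in pDCs at 3.32 to 15.3. Top2a, topoisomerase II alpha, was at 532 to 803 in proliferating CD8 T cells, 388 to 525 in proliferating macrophages, 399 to 549 in the CD4 group and 253 to 367 in tumour cells. Birc5 (survivin, of the chromosomal passenger complex) was at 427 to 485, 255 to 345, 184 to 443 and 112 to 147 in that order. Stmn1, which destabilizes microtubules, was at 1066 to 1383 in proliferating CD8 T cells and 444 to 509 in tumour cells, with 16.9% of its UMIs in values that were not whole. Cenpf, a kinetochore protein, and Tpx2, a spindle assembly factor, stood at 265 and 247 in proliferating CD8 T cells and 192 and 193 in proliferating macrophages. Cenpe, the kinetochore motor, was the exception, highest in tumour cells at 130 to 216 (median 179) with proliferating macrophages at 139 to 206 and proliferating CD8 T cells at 136 to 189, all overlapping. Over proliferating macrophages, the median ratio of the 7 genes was 1.39 for proliferating CD8 T cells (6 of 7 above 1, 5 higher in all 5 mice) and 0.86 for the CD4 group (2 of 7 above 1, 3 lower in all 5 mice). Against the CD4 group, proliferating CD8 T cells were higher for 7 of 7 genes in all 6 mice (median ratio 1.51).

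Ordered by likeness to Mki67 over the 23 annotations (Pearson r of log2(CPM + 1), as a description, the annotations sharing libraries and differing in depth), the nearest genes were Tpx2 (0.956), Plk1 (0.933), Birc5 (0.932), Cenpe (0.927), Cenpf (0.925) and Aurka (0.924). The order rests in part on 1 annotation: without the low-quality microglia the nearest were Tpx2 (0.958), Ccna2 (0.952), Ube2c (0.949), Birc5 (0.948), the S gene Rrm2 (0.945) and Ccnb2 (0.943). G2/M genes ran from 0.884 to 0.956, and from 0.914 to 0.958 without that annotation. The S genes ran from 0.535 (Mcm4) to 0.919 (Rrm2), and without it from 0.654 (Mcm6) to 0.945 (Rrm2), Mcm4 being then at 0.674. Ccne1 and Ccne2 were at 0.824 and 0.838, Cdk4 at 0.558, and Cdk6, Ccnd1, Ccnd2 and Ccnd3 between -0.261 and 0.089.

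The 3 D-type cyclins differed between annotations in patterns unlike those of the S and G2/M genes. Ccnd1 was at 330 to 651 in tumour cells (median 495), 164 to 447 in cDC1 (median 245), 168 to 377 in pDCs (median 268), 182 to 354 in monocyte-derived dendritic cells (median 234) and 132 to 287 in macrophages P5 (median 167). Those neighbours in the order overlap, and pDCs reached this level with the lowest G2/M sum of all annotations. In proliferating CD8 T cells Ccnd1 was at 0 to 9.8 over 6 mice, and no lymphoid annotation exceeded 26.9 pooled. The 2 dendritic types differed, since cDC2 were at 4.2 to 46.8 for Ccnd1, below every cDC1 value. Ccnd2 was highest in Tregs at 220 to 322 (median 256), with B cells at 37.8 to 296, monocyte-derived dendritic cells at 178 to 313 and cDC2 at 153 to 457. It was at 142 to 238 in proliferating CD4 T cells with Tregs and at 34.3 to 71.3 in proliferating CD8 T cells, ranges that do not overlap, and lowest in microglia at 20.9 pooled. Ccnd3 was spread most evenly, at 236 in monocyte-derived dendritic cells, 233 in naive or early CD8 T cells, 156 in proliferating CD8 T cells, 57.6 in tumour cells and 46.1 in B cells, the lowest.

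The cyclin D levels of the cycling annotations are seen in the plot of D-type cyclins by mouse. Proliferating CD8 T cells had Ccnd3 at 125 to 171, with Ccnd2 and Ccnd1 as given above. Proliferating macrophages had Ccnd1 at 69.7 to 219, Ccnd2 at 38.2 to 98.6 and Ccnd3 at 29.4 to 136. B cells had a pooled Ccnd2 of 254 and Ccnd1 of 4.8, with the pooled value set mainly by KO replicate 4 and WT replicate 2, which held 273 and 357 of the 840 B cells. The partner kinases were split too. Cdk6 was highest in precursor-exhausted CD8 T cells at 138 to 264 (median 211) and exhausted CD8 T cells at 114 to 237 (median 217), above proliferating CD8 T cells at 88.5 to 187 (median 158) with overlap, and it was at 37.3 to 62.4 in tumour cells and 6.8 to 51.3 in cDC2. Cdk4 was at 634 to 797 in tumour cells (median 662), higher than in any mouse of any other annotation, the next being proliferating CD8 T cells at 160 to 246 (median 205). E-type cyclins, which start replication, followed cycling: Ccne1 was at 39.8 in proliferating CD8 T cells, 35.2 in proliferating macrophages and 28.01 in B cells, and 2.3 in pDCs, and Ccne2 was at 20.8 in proliferating macrophages and 16.5 in B cells.

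**Figure D3:**
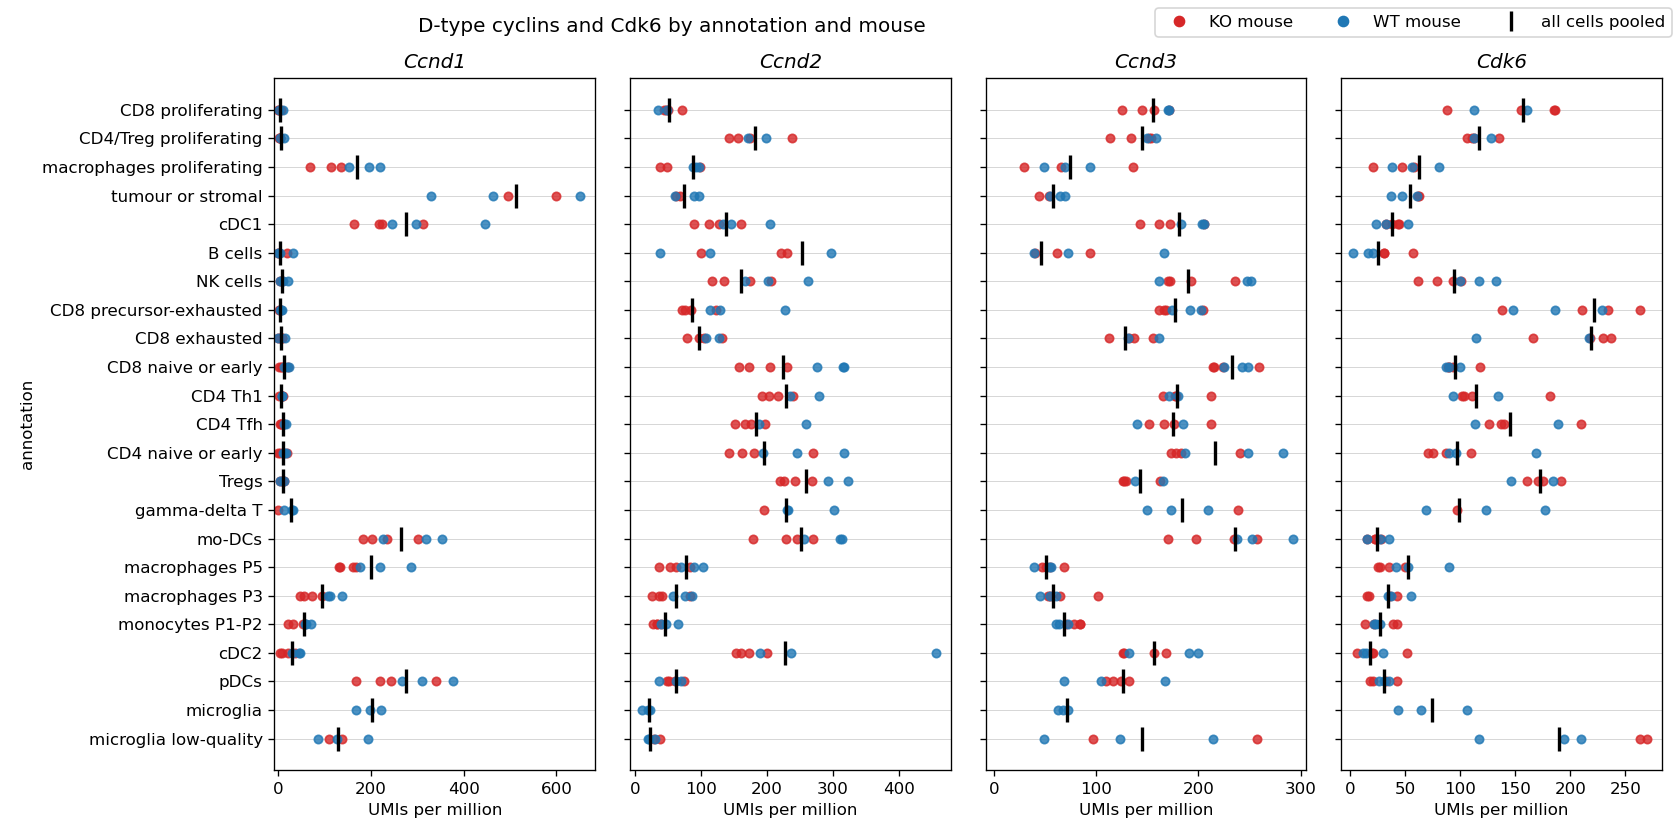
Points give CPM of Ccnd1, Ccnd2, Ccnd3 and Cdk6 in 1 mouse each (red KO, blue WT; 20 or more cells) for the 23 annotations, and black bars give all cells pooled. Ccnd1 is at most 31.5 in any mouse of the lymphoid rows and up to 651 in tumour cells, while Ccnd2 and Ccnd3 vary among the lymphoid rows: pooled Ccnd2 is at 259 in Tregs and 51.6 in proliferating CD8 T cells, and pooled Ccnd3 at 233 in naive or early CD8 T cells and 46.1 in B cells.

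E2f1, a factor that drives S phase genes, was highest in tumour cells at 57.2 to 78.9 (median 72.6), with 44.2 to 49.8 in proliferating CD8 T cells and no overlap between them. Foxm1, the factor of G2/M genes, was at 61.0 to 90.0 in proliferating macrophages, 62.2 to 78.5 in tumour cells and 38.05 to 95.4 in proliferating CD8 T cells, all overlapping, and at 16.8 in cDC1.

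Set against the other cells of its own class, each proliferating annotation showed the same steps of size. The median ratio was 4.52, 5.71 and 3.25 for S genes, 17.9, 21.8 and 12.2 for G2/M kinases and cyclins, and 17.1, 16.8 and 10.7 for spindle genes, in proliferating CD8 T cells, the CD4 group and proliferating macrophages in turn. For G1 genes it was 0.89, 0.87 and 1.45. Cdk4, Ccne1 and Ccne2 were higher in the proliferating cells in all 6 mice of each of the 3 annotations. In the T cells Ccnd2, Ccnd3 and Cdk6 were at ratios from 0.49 to 0.89, and in macrophages Ccnd1, Ccnd2, Ccnd3 and Cdk6 at 1.19 to 1.45. Foxm1 was 18.8, 18.4 and 18.9 times as high, E2f1 3.68, 5.04 and 1.74 times.

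Most replication and mitosis genes outside the list were also higher in the proliferating annotations. All 40 further replication genes were above a ratio of 1 in each of the 3 annotations, in every mouse for 40, 40 and 35 of them. Among the highest ratios were, in CD8 T cells, Asf1b (14.4; a histone chaperone) and Clspn (12.5; fork checkpoint), in the CD4 group Tk1 (14.7; thymidine kinase), Clspn (14.3) and Cdc6 (13.5; origin licensing), and in macrophages Tk1 (12.2), Asf1b (10.6) and Clspn (8.48). Of 55 further mitosis genes 54 were above 1 in each, led by Cdca5 (39.3; sororin of the cohesin complex), Melk (33.5) and Pbk (28.5) in CD8 T cells, by Ska1 (43.4; kinetochore), Nuf2 (39.9; kinetochore) and Cdca3 (27.8) in the CD4 group, and by Pbk (29.7), Nusap1 (19.8; spindle) and Kif11 (18.2; spindle motor) in macrophages. The gene below 1 in all 3 was Pttg1, securin, at 0.63, 0.61 and 0.83, named here after its values were seen. Of the cell cycle brakes 13 of 22, 11 of 22 and 14 of 21 were above 1. The share of all genes above 1 in these comparisons was not computed for any of the lists. Neither the brakes nor the E2F and DREAM factors are therefore read as a group. Fbxo5, an inhibitor of the anaphase-promoting complex, led at 29.2, 18.7 and 23.7. It was followed by Gmnn (geminin, which blocks relicensing) and Pkmyt1 (which holds Cdk1 inactive) at 5.13 and 4.19 in CD8 T cells and 5.15 and 5.36 in the CD4 group, and by the Cdk4 and Cdk6 inhibitors Cdkn2c (9.91) and Cdkn2a (7.19) in macrophages. Of the other E2F and DREAM factors 14, 13 and 15 of 15 were above 1 (median ratios 1.84, 1.85 and 2.12). Higher in every mouse were 10, 9 and 11 of the 15. They were led by the repressors E2f8 (29.9, 26.0 and 7.87) and E2f7 (19.3, 18.6 and 12.8) and by Mybl2 (12.5, 13.9 and 6.99), the B-Myb factor.

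Over all cells, 9 of the 12 S genes were higher in cells called S by the authors than in cells called G2M, and all 17 G2/M genes were higher in G2M. The 3 others were Rrm1 (111 in S and 128 in G2M), Rrm2 (129 and 170) and Tyms (98.7 and 101.5). Within proliferating CD8 T cells, the CD4 group, proliferating macrophages, tumour cells, B cells and NK cells, 12 of 12 S genes were higher in S-called cells, and within cDC1 10 of 12. Over all cells again, Mcm6 was at 25.4 CPM in cells called G1, 222 in S and 83.8 in G2M, and Ube2c at 12.2, 27.3 and 645. Ccne1 was at 4.45, 30.0 and 17.3, Ccne2 at 1.23, 16.5 and 5.83, and E2f1 at 10.97, 66.5 and 25.4, all 3 highest in S. The D-type cyclins differed less between calls, Ccnd1 being at 108, 155 and 160, Ccnd2 at 130, 149 and 116, and Ccnd3 at 131, 167 and 117. Single mice spread widely for Ccnd1, from 54.4 to 209 in G1 and from 38.2 to 344 in S. In S-called cells Mcm6 was at 368 in the CD4 group, 352 in proliferating CD8 T cells, 290 in B cells, 269 in cDC1, 262 in NK cells, 253 in tumour cells and 206 in proliferating macrophages. The macrophage value rests on 61 cells, and WT replicate 1, at 226, was the 1 mouse with 20 or more of them, so it has no spread over mice. S-called B cells and S-called tumour cells each reached 20 cells in only 2 mice. Rrm2 in S-called cells was at 462 in B cells, 404 in proliferating CD8 T cells and 39.0 in NK cells. Median depth rose in the order G1, S and G2M in B cells (4237, 13239 and 19847 UMIs), conventional dendritic cells (9531, 16511 and 18981) and tumour cells (14209, 20606 and 25350). So it did in monocyte-derived cells (6065, 7044.5 and 8649) and monocyte-derived dendritic cells (8527, 11782 and 11874). Median depth did not rise in this order in T cells (4557, 5182 and 5172), NK cells (4868, 6087 and 4446), microglia or pDCs. The part of depth in the calls was not tested.

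The mix of phases differed among the cycling lineages. All proliferating CD8 T cells were called S (29.1%) or G2M (70.9%), proliferating macrophages 15.2% S and 83.6% G2M, the CD4 group 39.6% and 47.8%, and tumour cells 30.5% and 43.8%. These shares are pooled. Over mice the G2M share ran from 63.0% to 79.2% in proliferating CD8 T cells and from 64.9% to 97.3% in proliferating macrophages. In the CD4 group it ran from 35.9% to 69.3%, and these ranges overlap. The cDC1 were 21.5% S and 18.5% G2M, B cells 20.5% and 18.0%, and NK cells 26.6% and 3.85%, which was 35 cells. The share of S gene UMIs among S plus G2/M gene UMIs, which needs no calls, gave a like order: a median over mice of 21.4% (14.7 to 25.5) in proliferating macrophages, 27.95% (24.2 to 29.4) in proliferating CD8 T cells, 31.1% (26.9 to 32.6) in tumour cells, 34.9% (26.4 to 40.0) in the CD4 group, 39.8% (27.2 to 46.9) in cDC1, 45.9% (36.5 to 72.8) in B cells, 65.2% (58.3 to 72.5) in NK cells and 78.3% (62.7 to 82.0) in pDCs. Neighbouring ranges overlapped, and NK cells did not overlap with any of the first 5.

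NK cells and cDC1 differed in their balance of S and G2/M genes. NK cells were not alone in holding more S than G2/M gene UMIs: the median S share was higher than their 65.2% in pDCs (78.3%) and in 5 T cell annotations, from 67.9% in naive or early CD4 to 69.8% in naive or early CD8 T cells. Against NK cells, cDC1 had median ratios of 1.35 for S genes (9 of 12 above 1), 4.92 for G2/M kinases and cyclins and 4.64 for spindle genes, the last 2 groups higher in all 7 mice for 17 of 17 genes. Against cDC2, cDC1 had median ratios of 3.58, 8.85 and 6.63, and all 29 S and G2/M genes were higher in all 7 mice. Among macrophages, P5 exceeded P3 by median ratios of 1.79, 2.05 and 2.47, with 29 of 29 genes above 1 pooled and 12 of them higher in all 7 mice.

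Because depth differs between annotations, each cell was also thinned to 1500 UMIs and shallower cells were left out (4 of 475 proliferating CD8 T cells, 0 of 384 tumour cells, 13 of 909 NK cells, 1 of 541 pDCs). The share of cells with at least 1 G2/M gene UMI was then 99.6% in proliferating CD8 T cells, 97.8% in proliferating macrophages, 80.4% in the CD4 group, 76.8% in tumour cells, 37.5% in cDC1, 34.9% in B cells, 28.4% in macrophages P5 and 21.8% in NK cells. The lowest share was 11.7% in pDCs (29.8% before thinning; median depth 6519 UMIs), and cDC2 had 14.6% (42.5% before thinning; median depth 6439 UMIs). NK cells, at 46.2% before thinning and a median depth of 5126 UMIs, ranged from 13.8% to 26.1% over mice against 8.80% to 15.2% in pDCs, which overlap. No sign of cycling is read from shares near the pDC value; free RNA was not measured here, and 15 of the 541 pDCs were called S or G2M. For S genes the thinned share was 89.4% in proliferating CD8 T cells, 83.8% in the CD4 group, 69.8% in proliferating macrophages, 66.1% in tumour cells, 44.0% in cDC1 and 40.8% in NK cells, and lowest in monocytes P1-P2 at 20.4% (56.6% before thinning; median depth 5730 UMIs). The shares depend on the depth chosen, and since cells below it were left out, the set of cells changed with it. Among B cells, those called G1 had a median of 4237 UMIs and those called G2M 19847. The part of this in the B cell shares was not tested. Thinned to 3000 UMIs, the G2/M share was 99.8% in proliferating CD8 T cells, 98.7% in proliferating macrophages, 88.8% in the CD4 group, 86.4% in tumour cells, 51.3% in B cells, 48.1% in cDC1, 33.3% in NK cells and 15.9% in pDCs, still the lowest. Without thinning it was 100%, 99.8%, 94.0%, 98.2%, 55.5%, 72.7%, 46.2% and 29.8% in these. The S share at 3000 UMIs was 98.0%, 91.7%, 87.0%, 85.3%, 56.8% and 59.4% in proliferating CD8 T cells, the CD4 group, proliferating macrophages, tumour cells, cDC1 and NK cells, the last 2 in the reverse order, and without thinning 98.9%, 96.4%, 94.3%, 97.9%, 82.5% and 71.4%.

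**Figure D4:**
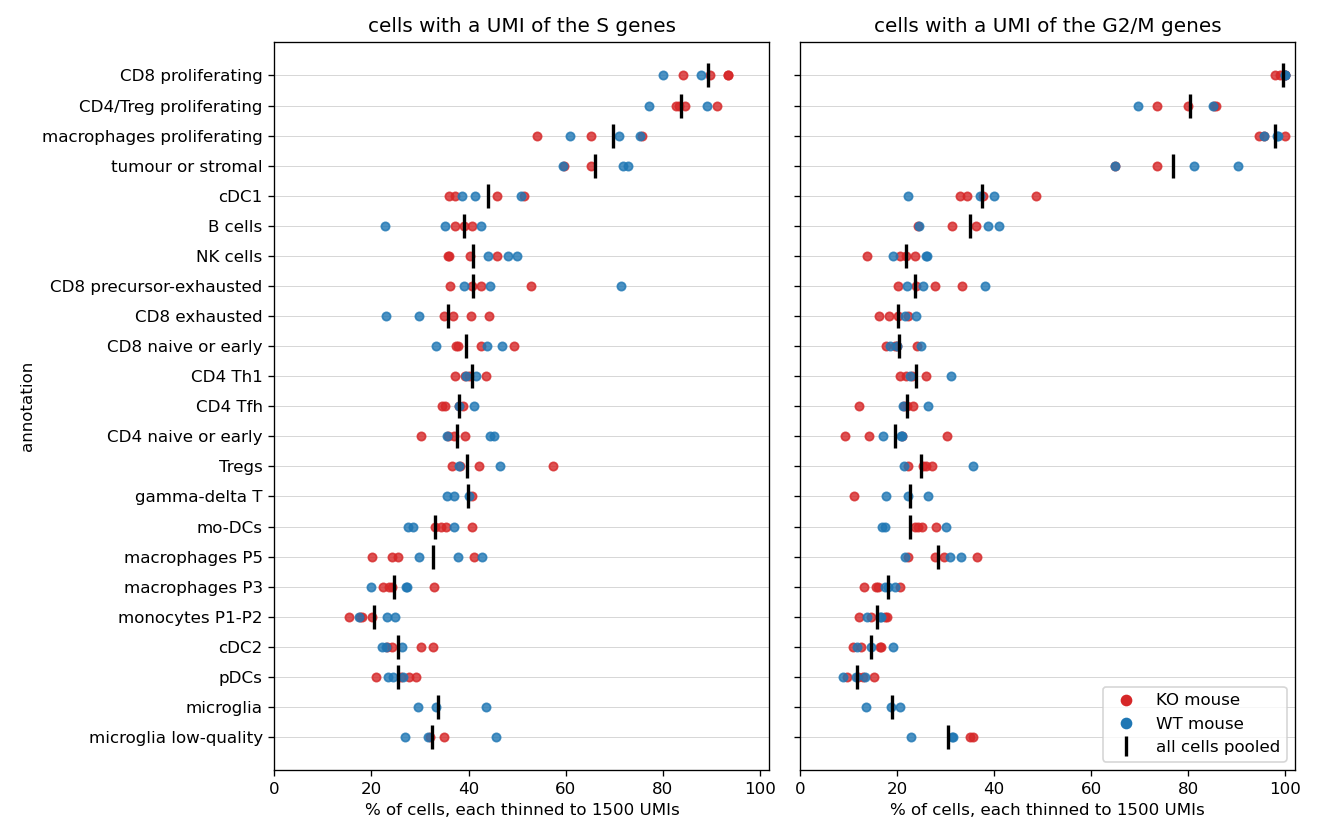
The x axis gives the percent of cells with at least 1 UMI of the 12 S genes (left) or the 17 G2/M genes (right) after thinning each cell to 1500 UMIs, for 23 annotations; points are mice (red KO, blue WT) and black bars all cells pooled. The 3 proliferating annotations and tumour cells stand apart from all others in both panels.

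Microglia, the cells aimed at by the deletion, were few (163 cells, and 251 in the annotation of low-quality or activated microglia). The low-quality annotation had a median of 2222 UMIs per cell against 6226, mitochondrial RNA of 4.77% against 2.06% and ribosomal RNA of 2.58% against 10.3%. Relative to main microglia, 12 of the 17 G2/M genes had a ratio above 1 in the low-quality annotation, and 10 of the 12 S genes one below 1. Mki67 was at 261 in low-quality and 65.3 in main microglia (ratio 3.99), Top2a at 140 and 36.0 (3.90) and Cenpf at 104 and 7.54 (13.8), while Ube2c was at 14.9 and 22.6 (0.66), Cdk1 at 13.2 and 26.0 (0.51) and Pcna at 57.8 and 110 (0.53). Few UMIs lie behind some of these: 8 and 9 for Cdk1 and Ube2c in low-quality cells and 9 for Cenpf in main microglia. Gene length moved with the ratio as well, which was above 1 for 10 of the 11 members spanning 25 kb or more and for 10 of the 27 shorter ones, a length bound chosen after the values were seen and not applied to other genes. Relative to proliferating macrophages, the low-quality cells had 54.3% of the Cenpf level, 31.7% of the Mki67 level, 7.15% of the Cdk1 level and 3.13% of the Ube2c level. The part of RNA quality or gene length in these levels was not tested.

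For KO against WT, UMIs were summed per mouse, and no member passed an adjusted p of 0.05 by edgeR's quasi-likelihood test with Benjamini-Hochberg adjustment in any of 8 cell groups. The share of all genes tested that passed was 0% in T cells (0 of 13043; 855 at an unadjusted p under 0.05; 35 by DESeq2), 0% in monocyte-derived cells (0 of 11943; 674; 20), 0% in conventional dendritic cells (0 of 11753; 817; 14), 0.0141% in NK cells (1 of 7068), 0.0288% in tumour cells (3 of 10431), 0% in proliferating CD8 T cells (0 of 8268; 302; 0 by DESeq2), 0.0494% in proliferating CD4 T cells with Tregs (4 of 8102) and 0% in proliferating macrophages (0 of 6459; 238; 0 by DESeq2). Tumour cells were fitted on 2 KO and 3 WT mice, and the 3 proliferating annotations on 6 mice each. All 38 members passed the filter on low counts in T cells, monocyte-derived cells, dendritic cells, tumour cells and proliferating macrophages, 37 in the proliferating T cell groups and 23 in NK cells.

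The members leaned lower in KO in T cells, monocyte-derived cells, NK cells and tumour cells, and their medians lay near 0 within the proliferating annotations. In T cells 33 of 38 had a negative log2 change, against 6249 of 13043 genes tested, with a median of -0.29 against 0.01 over all genes, and 12 of 12 S genes did (median -0.34). In monocyte-derived cells 32 of 38 were negative, against 5982 of 11943 genes, with a median of -0.24 against -0.00 over all genes, again with 12 of 12 S genes (median -0.33). NK cells had a median of -0.45 with 22 of the 23 tested members negative, against 3646 of 7068 genes. Of these 23, 12 were S genes (12 negative, median -0.50) and 4 were spindle genes (4 negative, median -0.43). Only 2 of the 10 G2/M kinases and cyclins were tested there, at -0.04 and 1.33. Tumour cells had a median of -0.16 with 28 of 38 negative, against 5194 of 10431 genes, and dendritic cells one of -0.08 with 24 of 38, against 5739 of 11753. The size of these medians, and in dendritic cells the sign, changed with single mice. In T cells the median was -0.04 without WT replicate 3, -0.15 without KO replicate 3, -0.51 without WT replicate 2 and -0.52 without KO replicate 1. In monocyte-derived cells it was -0.01 without WT replicate 1, between -0.07 and -0.06 without KO replicate 3 or KO replicate 4, -0.16 without KO replicate 2, -0.48 without WT replicate 2 and -0.58 without KO replicate 1. In NK cells it was -0.25 without WT replicate 2 (31 members tested), -0.27 without WT replicate 3 (28 members) and -0.64 without KO replicate 1 (20 members). In tumour cells it was -0.21 without WT replicate 1, -0.07 without WT replicate 3 and -0.08 without KO replicate 4, the last with 1 KO mouse left. In dendritic cells it turned to 0.16 without WT replicate 3, was -0.26 without KO replicate 2 and -0.25 without WT replicate 1, and lay between -0.05 and -0.02 without KO replicate 1, 3 or 4. Within proliferating CD8 T cells the median was 0.02, within the CD4 group 0.05 and within proliferating macrophages 0.03. Each of these changed sign when 1 mouse was left out. It was -0.01 without WT replicate 3 or KO replicate 4 in the CD8 group, -0.03 without WT replicate 2 in the CD4 group (both T cell groups have 2 WT mice, so leaving out either sets 4 KO mice against 1 WT mouse, which is assumed to vary like the others), and -0.04 without KO replicate 2 and -0.01 without KO replicate 1 or WT replicate 3 in macrophages. Over all mice left out in turn they ran from -0.01 to 0.04, from -0.03 to 0.14 and from -0.04 to 0.05. Further replication genes were negative for 36 of 40 in T cells (median -0.23) and 36 of 39 in monocyte-derived cells (median -0.23), and further mitosis genes for 48 of 55 (-0.17) and 41 of 55 (-0.13). In tumour cells 30 of 40 further replication genes (-0.23) and 46 of 54 further mitosis genes (-0.19) were negative, in NK cells 27 of 30 (-0.42) and 10 of 14 (-0.20), and in dendritic cells 19 of 40 (0.01) and 29 of 55 (-0.02). Within the CD4 group 48 of the 55 further mitosis genes were instead positive (median 0.15), against 4105 of 8102 genes tested. In proliferating CD8 T cells 30 of 55 were positive (0.03), against 4137 of 8268 genes. In proliferating macrophages 27 of 55 were (-0.00), against 3254 of 6459 genes. These classes come from the same mice, and a class sum cannot tell fewer cycling cells from less RNA per cycling cell. Genes of the cycle can rise and fall together in a mouse, so counts of signs are not counts of separate observations. The further lists are for that reason no separate support. The share of T cells in the proliferating annotations was 12.4%, 6.42%, 2.95% and 6.62% in KO and 8.04%, 7.45% and 12.5% in WT, and overlapped (difference -2.24 points, exact two-sided permutation p = 0.314, adjusted 0.629). In monocyte-derived cells it was 11.1%, 3.42%, 2.28% and 2.63% against 8.85%, 3.20% and 6.34% (difference -1.26 points, exact permutation p = 0.629).

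Among the members in T cells and in monocyte-derived cells, a D-type cyclin had the smallest unadjusted p. Ccnd2 in T cells was at 156, 116, 102.2 and 129 CPM in the KO mice and 267, 215 and 163 in the WT mice, all KO values lying below all WT values. Its log2 change was -0.72 (SE 0.19, n = 4 and 3; unadjusted p = 0.00405, adjusted p = 0.721 by edgeR's quasi-likelihood test), and it was the 1 member of 38 with KO below WT in every mouse, a pattern that 4.23% of all genes tested in T cells showed. Ccnd1 in T cells was near its floor at 4.14, 9.08, 2.98 and 6.99 against 15.9, 9.04 and 9.33, groups that overlap (log2 change -0.88, SE 0.39, adjusted p = 0.750 by edgeR). Top2a in T cells was at 156, 107, 89.1 and 133 against 191, 120 and 191, also overlapping (log2 change -0.42, SE 0.24, adjusted p = 0.782 by edgeR; -0.26 without WT replicate 3). Precursor-exhausted CD8 T cells, where Ccnd2 was at 86.1 pooled against 224 in naive or early CD8 T cells, were 23.5% to 53.8% of the T cells of KO mice and 6.75% to 35.4% of those of WT mice, ranges that overlap. The part of the make-up of the T cells in the Ccnd2 difference was not tested. Within single annotations the KO mean of Ccnd2 was lower in 9 of 10, 1 of which had a single KO mouse. In naive or early CD8 T cells it was at 157 to 231 in KO and 275 to 317 in WT, without overlap (3.3% of genes tested there; log2 change -0.64, SE 0.17, adjusted p = 0.395 by edgeR, with 0.0241% of genes passing). In Tregs it was at 220 to 269 and 292 to 322 in 4 and 2 mice, without overlap (7.66% of genes; log2 change -0.37, SE 0.17, adjusted p = 0.977 by edgeR, with 0.0411% passing). In precursor-exhausted CD8 T cells the groups overlapped, at 71.0 to 123 and 113 to 227 (log2 change -0.69, adjusted p = 1.00 by edgeR, with 0% of genes passing and 414 at an unadjusted p under 0.05). In proliferating CD8 T cells the KO mean was the higher, 52.7 against 41.0.

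Ccnd1 was the 1 member with KO below WT in every mouse in monocyte-derived cells, a pattern that 3.47% of genes tested there showed. It was at 137, 87.1, 89.4 and 113 in KO and 199, 146 and 150 in WT (log2 change -0.61, SE 0.20; unadjusted p = 0.0123, adjusted p = 0.827 by edgeR). Inside the 4 annotations of the class Ccnd1 passed in none, and the groups lay apart in 3 and overlapped in 1. In macrophages P5 Ccnd1 was at 132 to 167 in KO and 177 to 287 in WT, without overlap (4.51% of genes; log2 change -0.58, SE 0.18, adjusted p = 0.675 by edgeR, with 0.0188% of genes passing). In macrophages P3 it was at 46.6 to 95.1 and 107 to 138, without overlap (3.36% of genes; log2 change -0.81, SE 0.23, adjusted p = 0.867 by edgeR, with 0% of genes passing and 526 at an unadjusted p under 0.05). In proliferating macrophages it was at 69.7 to 136 and 153 to 219 over 3 and 3 mice, without overlap (5.4% of genes; log2 change -0.81, SE 0.25, adjusted p = 0.997 by edgeR). In monocytes P1-P2 it was at 21.9 to 58.5 and 57.2 to 71.1, which overlap (log2 change -0.63, adjusted p = 0.715 by edgeR, with 0% of genes passing and 535 at an unadjusted p under 0.05; DESeq2 was not run within these annotations). These annotations share the mice, so they are not separate evidence, and the annotations were looked at after the class values were seen. Cdk6 and Ccnd2 in monocyte-derived cells overlapped between groups, with log2 changes of -0.56 (SE 0.29, adjusted p = 0.899 by edgeR) and -0.55 (SE 0.29, adjusted p = 0.900). Cdk6 was at -0.30 without WT replicate 1, and Ccnd2 at -0.85 without KO replicate 1 and -0.36 without KO replicate 3. The class-by-genotype term, which asks whether T cells and monocyte-derived cells changed unequally, passed for 0% of genes (0 of 14054 by edgeR's quasi-likelihood test; 714 at an unadjusted p under 0.05; DESeq2 was not run on it) and for no member. Its lowest unadjusted p among members was 0.033 for Cdk6 (difference 0.93, T cells minus monocyte-derived cells, adjusted p = 0.958 by edgeR).

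In other cell groups a few members did not overlap between groups, and they are named here after their values were seen. In tumour cells, with 2 KO and 3 WT mice, 8 of 38 members had both KO values below all WT values, where 13.2% of all genes tested did, and 2 had them above, where 12% did. The 8 were Plk1, Mki67, Top2a, Birc5, Cenpe, Tpx2, Ccnd3 and Foxm1. Cenpe was at 156 and 130 in KO and 216, 198 and 179 in WT (log2 change -0.45, SE 0.16, unadjusted p = 0.0132, adjusted p = 0.444 by edgeR). Mki67 was at 215 and 168 in KO and 241, 260 and 244 in WT (log2 change -0.36, SE 0.16, adjusted p = 0.561 by edgeR). The 2 above were Mcm6 (157 and 187 against 143, 157 and 146) and Cdk6. In NK cells Gins2 and Top2a lay below in every KO mouse, 2 of 23 members tested against 2.99% of all genes; Top2a was at 50.03, 45.4, 32.7 and 48.9 in KO and 59.1, 50.2 and 63.3 in WT. In proliferating CD8 T cells Aurka, Cdc20 and Ube2c lay above in every KO mouse, 3 of 37 members against 9.46% of all genes, with 4 KO and 2 WT mice. Cdc20 was there at 137, 166, 153 and 125 in KO and 68.6 and 115 in WT (log2 change 0.50, SE 0.22, adjusted p = 1.00 by edgeR). In conventional dendritic cells Ccnd1 was at 120, 189, 238 and 172 in KO and 367, 239 and 207 in WT, which overlap (log2 change -0.62, SE 0.23, adjusted p = 0.697 by edgeR).

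**Figure D5:**
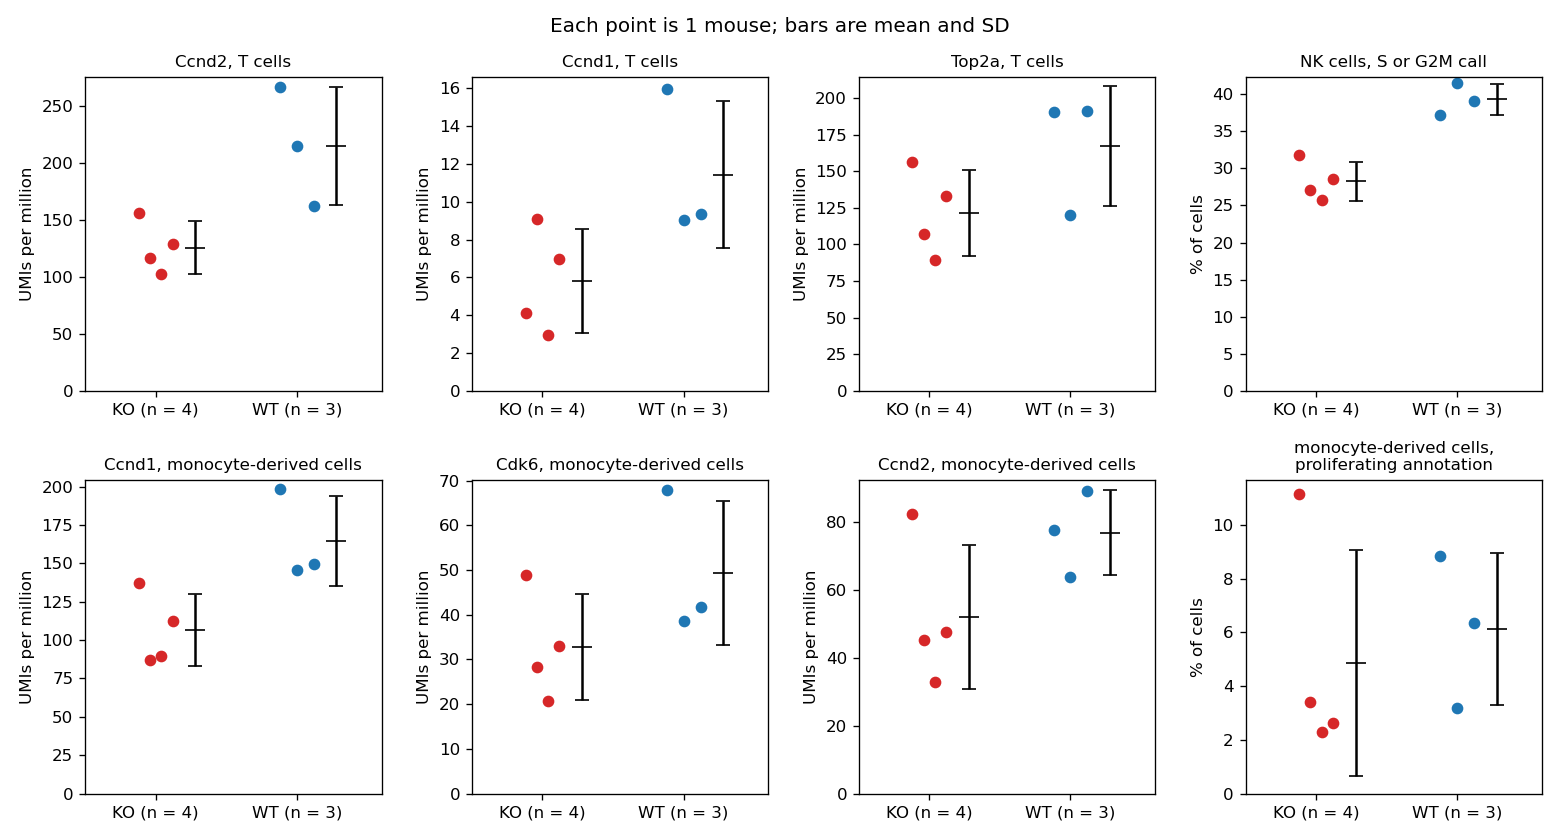
Points are mice (red KO, n = 4; blue WT, n = 3), with mean and SD beside them, for CPM of the named genes in T cells and monocyte-derived cells and for 2 shares of cells. Ccnd2 in T cells, Ccnd1 in monocyte-derived cells and the S or G2M share of NK cells do not overlap between groups; the other 5 panels overlap.

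Shares of cells called S or G2M were compared over mice in 6 classes by exact two-sided permutation tests, adjusted over the 6. In NK cells the share was 31.8%, 27.03%, 25.7% and 28.5% in KO and 37.3%, 41.5% and 39.1% in WT, so that every KO mouse lay below every WT mouse. The difference was -11.04 points (28.3% ± 2.64 against 39.3% ± 2.13, SD, n = 4 and 3), with an exact permutation p of 0.0286, the smallest that 4 against 3 mice allow, and an adjusted p of 0.171. It lay in the S calls, which differed by -11.7 points, while G2M calls differed by 0.68 points. In T cells the shares were 35.1% ± 5.05 and 35.9% ± 7.55 (exact permutation p = 0.914), in dendritic cells 26.4% ± 8.28 and 26.99% ± 6.58 (exact p = 0.886) and in monocyte-derived cells 15.2% ± 11.9 and 19.5% ± 6.55 (exact p = 0.629), each an SD over 4 and 3 mice. B cells differed by -1.04 points (3 and 3 mice, exact p = 0.9) and tumour cells by -13.6 points (2 and 3 mice, exact p = 0.3), where no exact p can go below 0.1.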

How the data were processed

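Cells of 7 mice (4 KO, 3 WT; 1 library per mouse) were measured by droplet single-cell RNA sequencing from the 5′ end of transcripts. The authors deposited a matrix of UMIs (handled here like expected counts: 7.51% of non-zero values were not whole at a tolerance of 1e-06, how these arose being not given in the sources used here) and a table of cells with the count of detected genes, mitochondrial and ribosomal percent, map coordinates (a score, not used), phase and annotation. The submitters' processing notes name FastQC 0.11.5, STARsolo, STAR 2.7.10a and build mm10; the gene annotation, filters, doublet handling and the method of the phase calls are not given in the sources used here. Deposited annotations were grouped into 9 classes.

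Levels are UMIs per 1000000 UMIs of the cells (CPM), per mouse with 20 or more cells. For tests, UMIs were summed per mouse, rounded to whole numbers and fitted for KO against WT with edgeR 4.0.16 (TMM, low-count filter, quasi-likelihood test, Benjamini-Hochberg over all genes tested, called at 0.05) in R 4.3.3, with DESeq2 1.42.0 as an alternative. Shares of cells were compared by exact two-sided permutation over mice. The edgeR fit alone was tested on simulated counts with known changes, for T cells and monocyte-derived cells. Changes as small as the medians of the members were not simulated, and the other steps were not tested in this way. The labels do not tell more than that the mice are separate animals, and p-values measure the spread between them. For comparisons across depths each cell was thinned to 1500 UMIs, or 3000 as an alternative. Promoters came from RefSeq tables (GRCm38.p6). Other settings were no filter, a replicate block, each mouse left out, cells with shared barcodes left out (for S or G2M shares only) and single annotations. The last 2 were chosen after seeing the data.

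All 38 genes could be named with levels. For KO against WT the text gives members called and, where there were none, the 3 with the smallest p in T cells and in monocyte-derived cells. Of the pathway lists it gives counts and up to 3 of the highest ratios, 1 gene being not reported here; others are marked as named after their values were seen. The members and lists were chosen with earlier results of these data known.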

Additional observations from a re-analysis of the deposited data

Results flagged for a closer look

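Of 12 measures (shares of cells and gene levels) examined in the 4 KO mice, 1 held a mouse far from the others. For a single measure chance gives about 1 in 20. The 12 measures come from the same 4 mice and are not independent, and the WT mice were not examined. The share of monocyte-derived cells in the proliferating annotation was 11.1% in KO replicate 1, against 3.42%, 2.28% and 2.63% in the other KO mice. The gap was 0.871 of the range of the group, above the critical value of 0.829. KO replicate 1 was also the library with the fewest cells (1410) and the highest median depth (9554 UMIs). Its part in the share was not tested.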

How the results depend on the processing

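No member was called in any of 90 settings over the 8 cell groups. The counts of all genes called moved with the tool and filter. DESeq2 called 35 genes in T cells, 20 in monocyte-derived cells, 14 in dendritic cells, 4 in NK cells and 16 in tumour cells. Without the low-count filter the counts were 3, 5, 14, 27 and 167 in these groups, and 14, 27 and 24 in proliferating CD8 T cells, CD4 T cells with Tregs, and macrophages. With the replicate number as a block they were 3, 3, 5 and 6 in T, monocyte-derived, dendritic and NK cells and 4, 14 and 21 in the proliferating groups. For tumour cells no paired fit was possible because it leaves no residual degrees of freedom. The numbers do not pair the mice (same-number correlations from -0.277 to 0.170). Leaving out 1 mouse gave 0 to 2 genes in T cells, 0 to 5 in monocyte-derived cells, 0 to 2 in dendritic cells, 0 to 3 in NK cells, 0 to 25 in tumour cells, 0 to 2, 2 to 6 and 0 to 6 in the proliferating CD8, CD4 and macrophage groups, and 0 for the class-by-genotype term; the cause was not tested. Where an arm had 2 mice (KO in tumour cells, WT in the proliferating T cell groups), leaving out 1 gives a lone mouse assumed to vary like the others. The shares of cells with a UMI moved in 35 of 36 alternatives (3000 UMIs, or no thinning).

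The difference in S or G2M share changed sign for S alone in T cells (0.93 points) and B cells (5.13) and for G2M alone in dendritic cells (0.81) and NK cells (0.68), and the proliferating share of T cells did so as a share of all cells (1.29). Leaving out 1 mouse gave -5.07 to 2.02 points in T cells, -10.0 to -1.38 in monocyte-derived cells, -4.59 to 2.98 in dendritic cells, -12.2 to -9.93 in NK cells, -7.13 to 2.40 in B cells and -20.9 to -8.22 in tumour cells. For the proliferating shares it gave -4.01 to -0.64 in T cells and -3.36 to 0.098 in monocyte-derived cells. The log2 changes of the 6 named members moved in size, by over 1.5 times for Top2a in T cells (-0.63 to -0.26 without 1 mouse) and for Cdk6 (-0.81 to -0.30) and Ccnd2 (-0.85 to -0.36) in monocyte-derived cells. They kept their sign and their side of the threshold in the 42 fits without 1 mouse and in the 25 other alternatives. The 25 include fits of Ccnd1 and Ccnd2 within single annotations, picked after the class values were seen. Not among them were 3 cases with a higher KO mean. These were Ccnd2 in proliferating CD8 T cells (52.7 against 41.0), Ccnd1 in Tregs (9.36 against 7.71) and Cdk6 in monocytes P1-P2 (29.3 against 24.4). The KO mean was lower in 9 of 10 T cell annotations for Ccnd1 and for Ccnd2. In monocyte-derived annotations it was lower in 4 of 4 for both and in 3 of 4 for Cdk6. Cells with shared barcodes were left out only for the S or G2M shares, not for these fits. With 3 or 4 mice a group, no exact p can go below 0.0286, and B and tumour cells rest on 5 or 6 mice.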
